A study of Mus musculus with 6 samples.

Results

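The genes of the constitutive proteasome were compared between control and PM2.5-exposed GC-2spd cells. They were taken from the GENCODE M21 annotation as the protein-coding genes whose symbol has Psm, a letter from a to g and a number, without the immunoproteasome genes Psmb8, Psmb9 and Psmb10, together with Pomp and Nfe2l1. This rule found 49 of the 54886 genes listed in each library. Psmc3ip, a meiotic recombination factor whose symbol happens to fit, is no proteasome gene and was set aside, which left 48 members. These were 8 α-ring genes, 8 β-ring genes, 6 base ATPases, 3 other base subunits, 8 lid subunits, 6 activators and inhibitors, 8 assembly chaperones and Nfe2l1. GC-2spd is an immortalised line derived from mouse spermatocytes, with a BALB/c strain background in the labels. The 3 control libraries were untreated cells in normal culture medium, and the 3 exposed libraries were cells exposed for 48 h to PM2.5 at 100 μg/mL. The methods of the study name a reference urban dust suspended in PBS as the PM2.5, and PBS for its controls. All 6 libraries therefore come from 1 cell line in culture, and the sources used here do not say whether the libraries of a group came from separate cultures, so that p-values measure only the spread between these libraries.

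The proteasome is the protease that removes most ubiquitin-tagged proteins of the nucleus and cytosol. Its barrel-shaped core particle has outer α rings, which gate the entry, and inner β rings, which hold the protease sites. A regulatory particle caps the core: the ATPases of its base unfold the substrate, and the lid holds the enzyme that removes the ubiquitin chain. Other caps open the core without ubiquitin, and dedicated chaperones put the rings together in order. The factor NFE2L1 (also NRF1) is normally degraded, and when the protease is inhibited it is cut by DDI2, deglycosylated by NGLY1 and switches proteasome genes on together through antioxidant response elements. Male germ cells are known for their own core subunit, Psma8, and for the cap protein encoded by Psme4.

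RNA was measured as FPKM (fragments per length of exon and per depth of the library, scaled between libraries by the authors), on 16209352 to 18003201 recovered reads per library. Control replicate 2 stood apart: its log2(FPKM + 1) correlated at 0.732 to 0.780 with the 5 other libraries, which correlated at 0.950 to 0.992 with each other, and mitochondrial genes took 14.5% of its reads against 1.65% to 1.95% elsewhere. Log2 fold changes and tests of the members in the main settings are therefore given with and without that library. Other settings kept it unless its removal is named. PM2.5 replicate 3 correlated at 0.950 and 0.958 with the other exposed libraries and at 0.972 with control replicates 1 and 3. The exposure label was checked on Cyp1a1, the classical target of the aryl hydrocarbon receptor, which was listed at 0.0387, 0 and 0 FPKM in the controls and at 6.15, 6.11 and 7.94 FPKM in the exposed libraries. The germ-cell label had little in the RNA behind it: of 12 spermatocyte markers, 9 had at most 3 reads in every library, 4 had none, and only Hspa2 reached the level needed for the test, with a summed level of 5.08 to 5.98 FPKM in controls and 3.50 to 4.98 in exposed libraries. Of 5 fibroblast markers 4 were tested, with sums of 631 to 672 FPKM in controls, 583 and 581 FPKM in PM2.5 replicates 1 and 2 and 319 FPKM in PM2.5 replicate 3, and Thy1 had at most 3 reads. Of 6 Sertoli, 5 Leydig and 4 macrophage markers only Gata4, Star and Cd68 reached the test, with list sums of 17.3 to 19.2 against 12.1 to 23.6 FPKM, 2.01 to 2.59 against 1.74 to 1.89 FPKM and 0.795 to 15.5 against 1.10 to 1.87 FPKM, in controls and exposed libraries. The macrophage sum of 15.5 FPKM was that of control replicate 2, against 0.795 and 1.07 FPKM in the other controls. The part of these cell type markers in the results was not tested.

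Sequences before the start site were looked at because NFE2L1 acts through them. RefSeq gave promoters (250 bases before to 50 after the start, build GRCm38.p6) for 40 of the 48 members. An antioxidant response element core was searched on both strands as TGACNNNGC and as TGAGNNNGC. The first was in the promoters of 6 members (15.0%, against 14.0% of all 27025 genes with a promoter), the second in those of 13 (32.5% against 19.9%), and either in 17 (42.5% against 30.8%). The members with the TGACNNNGC form were Psmb5, Psmb6, Psmc6, Psmd9, Psmd12 and Psme4. CCGGAAG, the core bound by ETS factors, was in 15 promoters (37.5% against 9.93%), and CCAAT in 14 (35.0% against 41.1%). The TGACNNNGC form lay close to the start in Psmb5 (position -47), Psmb6 (-9), Psmd9 (-31) and Psme4 (-7), and farther away in Psmc6 (-227) and Psmd12 (-247). Of these, only the catalytic genes Psmb5 and Psmb6 are shown. The 250 bases before each start are given in the direction of the gene, with the element in capitals. They come from chr14:54617996-54618245 (minus strand) and chr11:70525107-70525356 (plus strand).
Psmb5: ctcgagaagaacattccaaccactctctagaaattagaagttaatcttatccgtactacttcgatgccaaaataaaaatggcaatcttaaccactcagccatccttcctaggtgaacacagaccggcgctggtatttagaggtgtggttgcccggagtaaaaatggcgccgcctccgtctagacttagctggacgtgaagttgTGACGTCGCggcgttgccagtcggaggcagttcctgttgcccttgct
Psmb6: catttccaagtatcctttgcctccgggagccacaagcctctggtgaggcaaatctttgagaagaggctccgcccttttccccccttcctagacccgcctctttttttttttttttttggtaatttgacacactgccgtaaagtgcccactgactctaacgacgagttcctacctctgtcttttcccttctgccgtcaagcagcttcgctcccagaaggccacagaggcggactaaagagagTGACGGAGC
A match describes these letters and is not a measured site.

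Of the 48 members, 46 had a mean of at least 1 FPKM over the 6 libraries and were tested. The germ-cell subunit Psma8 had no read in any library, which allows up to 3 reads per library, and the thymus subunit Psmb11 stayed at or under 0.0644 FPKM in every library. In control replicates 1 and 3, the 2 like controls, the mean level of the tested members spanned 54.7-fold. The highest were Psmb4 at 215 FPKM, Psmd2 at 184 FPKM, Psma5 at 154 FPKM and Psmc5 at 133 FPKM, and the lowest were Psmg3 at 3.93 FPKM, Psmf1 at 5.07 FPKM and Psmd9 at 6.25 FPKM. The 14 genes of the core particle, whose proteins sit in it in equal number, ranged from 37.7 FPKM in Psmb7 to 215 FPKM in Psmb4, a 5.70-fold range. By part, the medians were 90.2 FPKM for the α ring, 91.7 for the β ring, 59.2 for the base ATPases, 72.3 for the other base subunits, 52.4 for the lid, 34.6 for activators and inhibitor, and 22.6 for the chaperones. The genes that build the particle thus had higher median levels than those that assemble it. FPKM was set per length of all exons joined, which is often longer than the mRNA, so that levels of different genes compare only roughly.

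**Figure D1:**
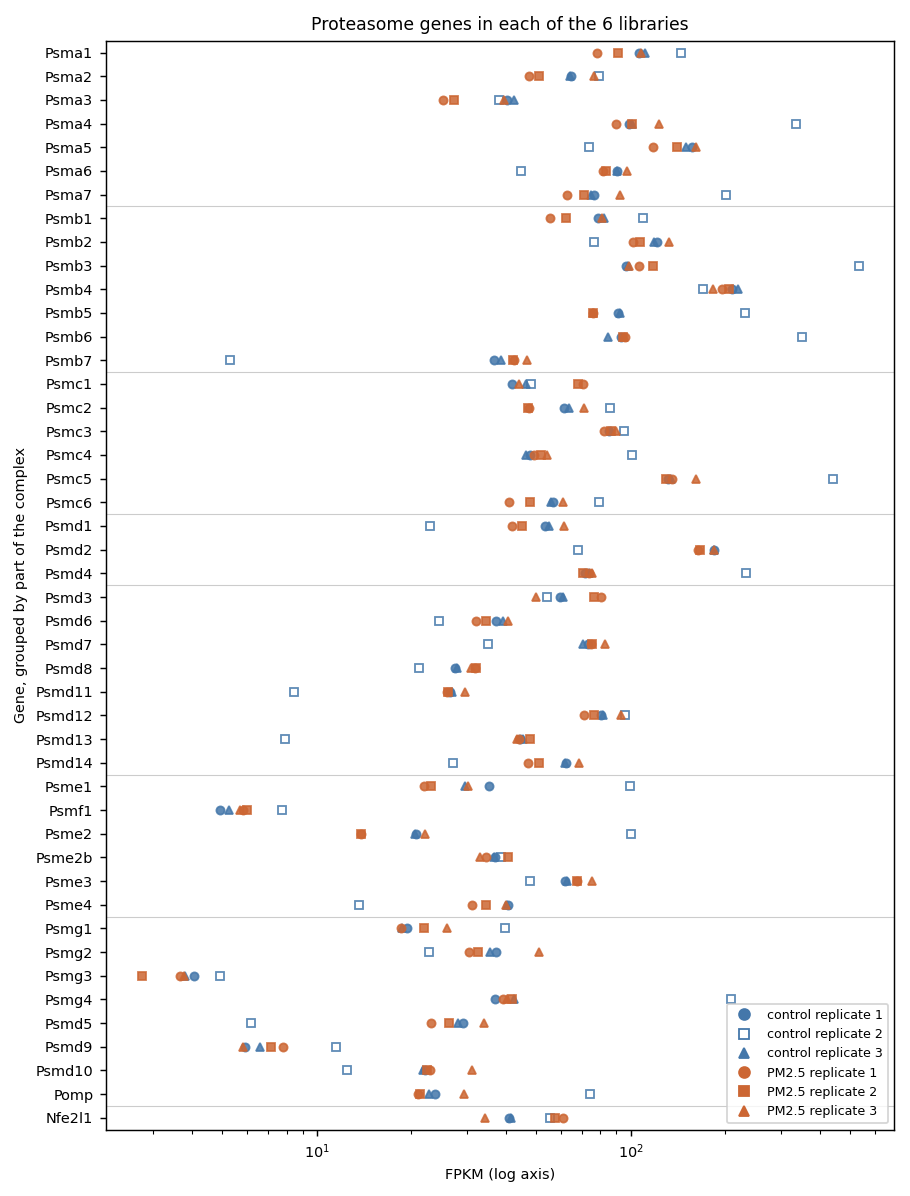
FPKM of the 46 tested members (log axis) in each library, grouped by part of the complex; blue marks controls, orange PM2.5, and the open square is control replicate 2. Control replicates 1 and 3 lie close together, and the open square is often far to the left (Psmb7, 5.27 FPKM) or to the right (Psmb3, 532 FPKM).

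No proteasome gene passed the test for a difference after exposure. In limma over all 11884 genes tested, 0 of 46 members had a Benjamini-Hochberg adjusted p under 0.05, higher or lower, where 0.0926% of all genes did, and 0 members had an unadjusted p under 0.05 against 3.80% of all genes. Without control replicate 2, 0 members again passed, against 0.993% of all genes, and 1 member, Psmb5, had an unadjusted p under 0.05 against 15.9% of all genes. In voom on recovered reads 0 members passed, with 0 under an unadjusted 0.05. The lowest adjusted p of any member in limma was 0.875 with all libraries and 0.227 without control replicate 2. On the log2(FPKM + 1) scale the median log2 fold change (PM2.5 over control) was -0.049 over the members and 0.020 over all genes, and without control replicate 2 it was -0.0077 and -0.011. With each library rescaled to the same total, the 6-library medians of members and of all genes moved together, to 0.25 and 0.26, and with quantile normalization they were 0.022 and 0.016. Of the members, 20 lay above and 26 below 0 with all libraries, and 23 and 23 without that library. In a bulk sample, less RNA per cell and fewer cells of a type cannot be told apart.

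How small a difference these libraries could bound depended on control replicate 2. With it, the median standard error of a member's log2 fold change was 0.33. The 95% interval lay within 1 log2 unit of 0 for 20 of 46 members (43.5%, against 47.7% of all genes). On log2(FPKM + 1), 1 unit stands for more than 2-fold in FPKM at low levels. Without it, the median standard error was 0.14. The interval then lay within 1 log2 unit for 45 of 46 members (97.8%, against 86.2% of all genes), the exception being Psmc1. It lay within 0.5 log2 units for 26 (56.5%, against 39.8%). The members had higher levels than most genes, with a median in control replicates 1 and 3 of 55.1 against 8.19 FPKM. The part of the level in these shares was not tested. Groups that did not overlap at all were counted too. With 6 libraries they numbered 7 of 46 members (15.2%, the same as the 15.2% of all genes), of which Psmb7, Psmd7, Psmd8, Psmd10 and Psme3 were higher and Psmb5 and Psmg3 lower after exposure. Without control replicate 2, 9 members were higher without overlap (19.6%, against 17.7% of all genes) and 5 lower (10.9%, against 19.6%).

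**Figure D2:**
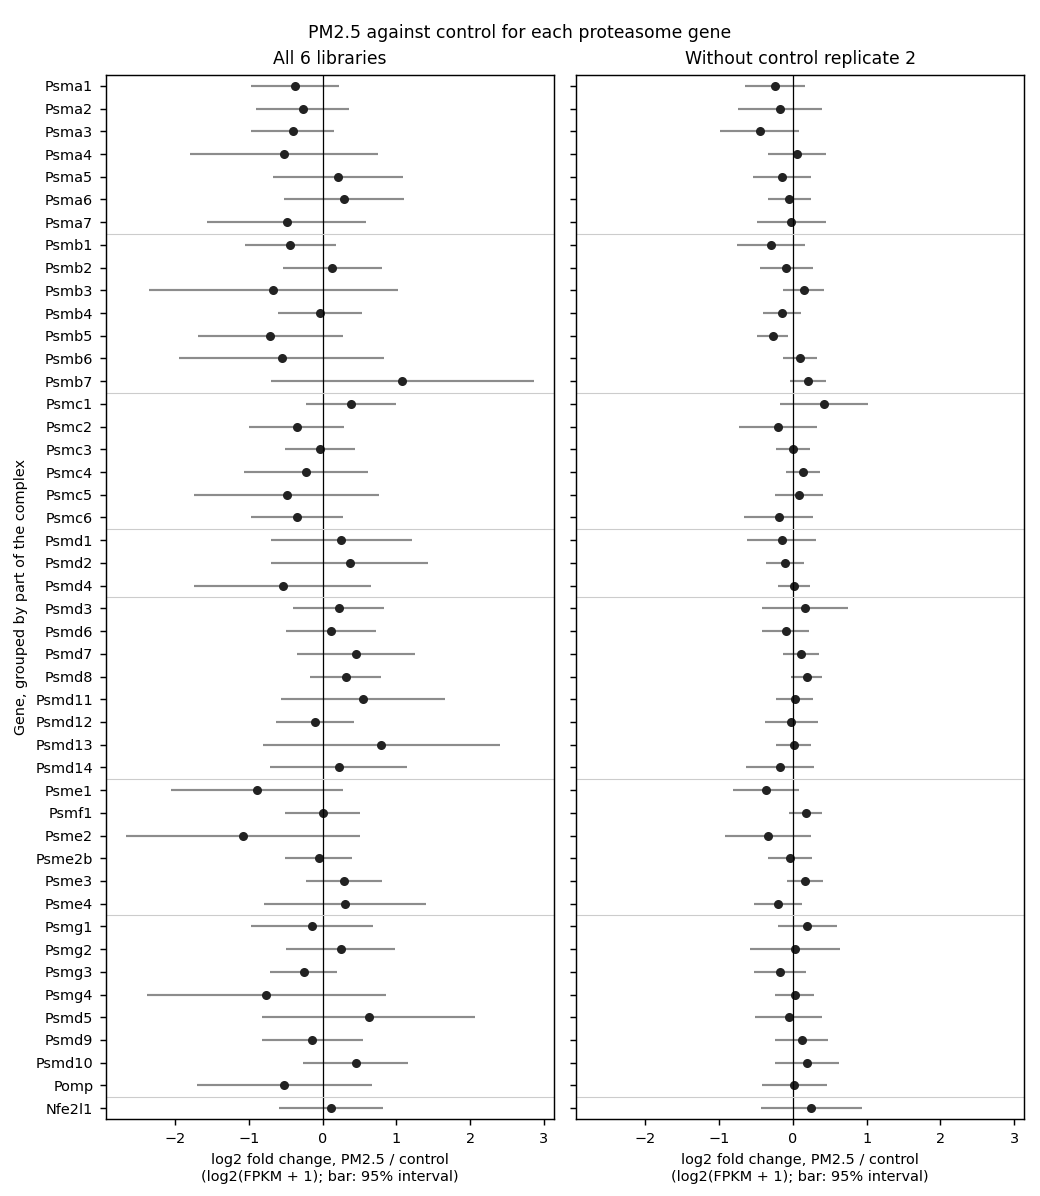
Log2 fold change (PM2.5 over control, on log2(FPKM + 1)) of each tested member with its 95% interval, from all 6 libraries (left) and without control replicate 2 (right). Intervals shrink to the right, where 45 of 46 lie within 1 log2 unit of 0 and that of Psmb5 alone does not cover 0.

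For the α-ring genes, which form the gate of the core, the median was -0.38 with all libraries, with 5 of 7 below 0. When rescaled to the same total it was -0.071, with 4 of 7 below 0. Without control replicate 2 it was -0.15, with 6 of 7 below 0. Psma3, which had the lowest value of all members without control replicate 2 (chr12:70974621-70996347, plus strand) was at 40.3, 38.1 and 42.3 FPKM in control replicates 1, 2 and 3 and at 25.1, 27.3 and 39.4 FPKM in PM2.5 replicates 1, 2 and 3. Exposed replicates 1 and 2 lay well below every control, and replicate 3 lay among them. Its log2 fold change was -0.41 (SE 0.23) with an adjusted p of 0.875 in limma, and -0.45 (SE 0.21) with an adjusted p of 0.383 without control replicate 2. Psma4, the other end of the ring, was at 98.4, 336 and 101 FPKM in controls and at 89.6, 101 and 123 FPKM after exposure. Here only control replicate 2 was set apart, and the log2 fold change turned from -0.53 (SE 0.52) to 0.056 (SE 0.16) without it. Of the sequence of Psma3 and Psma4, 20.3% and 21.8% is shared with other genes when cut into 31-base pieces, and 3110056K07Rik overlaps Psma3 on the opposite strand.

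In the β ring the 3 protease sites are encoded by Psmb5 (chymotrypsin-like), Psmb6 (caspase-like) and Psmb7 (trypsin-like), and their values did not all lie on one side of the controls. Psmb5 (chr14:54614119-54618022, minus strand) was at 90.8, 230 and 92.5 FPKM in controls and at 75.5, 75.5 and 75.8 FPKM in exposed libraries. All 3 exposed libraries lay together below all 3 controls. Its log2 fold change was -0.71 (SE 0.40, adjusted p 0.875 in limma) with all libraries and -0.27 (SE 0.082, 95% interval -0.48 to -0.064) without control replicate 2, with an unadjusted p of 0.020 and an adjusted p of 0.227. Of its sequence 71.7% is shared with other genes, mostly the processed pseudogene Gm3375, listed at 0.880, 2.03 and 1.67 FPKM in controls and at 3.02, 4.32 and 1.04 FPKM after exposure, so that reads may have been split between them.

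Psmb6 (chr11:70525367-70527858, plus strand) was at 92.7, 352 and 84.8 FPKM in controls and at 96.1, 94.3 and 95.1 FPKM after exposure. The exposed libraries lay just above control replicates 1 and 3, and the log2 fold change was -0.56 (SE 0.57) with all libraries and 0.10 (SE 0.090) without control replicate 2. Psmb7 (chr2:38588036-38644087, minus strand) was at 36.7, 5.27 and 38.7 FPKM in controls and at 42.3, 42.2 and 46.6 FPKM after exposure. All exposed libraries lay above all controls, and the log2 fold change was 1.08 (SE 0.73) with all libraries and 0.21 (SE 0.095, 95% interval -0.036 to 0.45, adjusted p 0.377 in limma) without control replicate 2. Nek6 overlaps Psmb7 on the opposite strand and shares 10.3% of its 31-base pieces. The counting is not stated to use strand, so that reads from the shared part cannot be told apart. Psmb1, a structural subunit and the lowest of the ring without control replicate 2, was at 78.7, 109 and 82.2 FPKM in controls and at 55.4, 62.3 and 80.7 FPKM after exposure, and its log2 fold change was -0.44 (SE 0.25) and -0.30 (SE 0.18). The ring's median was -0.44 with all libraries (-0.14 when rescaled to the same total) and -0.088 without control replicate 2.

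The base ATPases thread the substrate into the core. Their median log2 fold change was -0.29 with all libraries (0.015 when rescaled to the same total) and 0.044 without control replicate 2, with 5 and then 2 of 6 below 0. Psmc1 (chr12:100110154-100123405, plus strand) had the largest positive value of all members without control replicate 2. It was at 41.9, 48.1 and 46.2 FPKM in controls and at 70.4, 67.8 and 43.9 FPKM after exposure. Exposed replicates 1 and 2 lay above all controls and replicate 3 among them, and the log2 fold change was 0.38 (SE 0.25) and 0.43 (SE 0.23, 95% interval -0.17 to 1.02, adjusted p 0.444 in limma). Psmc2 was at 61.1, 85.7 and 63.5 FPKM in controls and at 47.3, 46.9 and 70.8 FPKM after exposure. Its exposed replicates 1 and 2 lay below all controls, on the other side from Psmc1, and its log2 fold change was -0.35 (SE 0.27) and -0.20 (SE 0.21). Without PM2.5 replicate 3, the log2 fold change was 0.60 (SE 0.19) in Psmc1, -0.55 (SE 0.24) in Psmc2 and -0.60 (SE 0.18) in Psma3. In that fit Psmc1 and Psma3 had unadjusted p-values of 0.028 and 0.023 in limma, where 5.28% of all genes were under 0.05, and adjusted p-values of 0.882 and 0.858. Of the sequence of Psmc1, 32.2% is shared with other genes.

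The other base subunits include Psmd1, a scaffold, and Psmd4, a receptor for ubiquitin chains. Psmd1 was at 53.3, 22.9 and 54.9 FPKM in controls and at 41.9, 44.9 and 61.2 FPKM after exposure, with log2 fold changes of 0.25 (SE 0.39) and, without control replicate 2, -0.15 (SE 0.18). Psmd4 was at 71.3, 233 and 73.3 FPKM in controls and at 73.6, 70.2 and 75.5 FPKM after exposure. Its libraries apart from control replicate 2 lay close together, and the log2 fold change was -0.54 (SE 0.49) with all libraries and 0.014 (SE 0.087, 95% interval -0.21 to 0.24) without it.

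Of the lid genes, 7 of 8 lay above 0 with all libraries, with a median log2 fold change of 0.26 (0.56 when rescaled to the same total). Without control replicate 2, 5 of 8 did, with a median of 0.016. The 3 other base subunits had 2 genes above 0 and a median of 0.25 with all libraries (0.55 when rescaled), and 1 gene and -0.11 without control replicate 2. Psmd14, the enzyme that removes ubiquitin chains, was at 61.9, 27.1 and 61.6 FPKM in controls and at 47.1, 50.9 and 68.6 FPKM after exposure. The exposed libraries lay on both sides of control replicates 1 and 3, and the log2 fold change was 0.22 (SE 0.38) with all libraries and -0.17 (SE 0.18) without control replicate 2. Psmd8, a small lid subunit, was at 27.5, 21.2 and 27.9 FPKM in controls and at 31.9, 32.1 and 31.1 FPKM after exposure. Its groups did not overlap, and the log2 fold change was 0.31 (SE 0.20, adjusted p 0.875 in limma) and 0.19 (SE 0.082, 95% interval -0.020 to 0.40, adjusted p 0.356) without control replicate 2.

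Among the caps, Psme1 and Psme2 encode the interferon-inducible activator of the core, Psme3 its nuclear relative, Psme4 the large activator known from testis, and Psmf1 an inhibitor. Psme1 was at 35.4, 99.2 and 29.5 FPKM in controls and at 22.0, 23.1 and 30.2 FPKM after exposure. Exposed replicates 1 and 2 lay below all controls and replicate 3 between them, and the log2 fold change was -0.89 (SE 0.48) and, without control replicate 2, -0.37 (SE 0.17, adjusted p 0.389 in limma). Its partner Psme2, named after its values were seen, was at 20.6, 100 and 20.5 FPKM in controls and at 13.8, 13.8 and 22.0 FPKM after exposure, and 33.5% of its sequence is shared with Psme2b. The log2 fold change of Psme2 was -1.08 (SE 0.65) with all libraries, the lowest of all members, and -0.33 (SE 0.23) without control replicate 2. In both partners exposed replicates 1 and 2 were the lowest of the 6 libraries and control replicate 2 the highest.

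Psme3 was at 61.7, 47.9 and 62.8 FPKM in controls and at 67.5, 67.3 and 75.0 FPKM after exposure. All exposed libraries lay above all controls, by a log2 fold change of 0.29 (SE 0.21) and, without control replicate 2, of 0.16 (SE 0.096, adjusted p 0.468 in limma). Psme4 was at 40.6, 13.6 and 40.4 FPKM in controls and at 31.3, 34.7 and 39.9 FPKM after exposure, and its log2 fold change turned from 0.30 (SE 0.45) to -0.20 (SE 0.13) without control replicate 2. Psmf1 was at 4.90, 7.73 and 5.24 FPKM in controls and at 5.83, 6.003 and 5.70 FPKM after exposure, and its log2 fold change was -0.00096 (SE 0.21) and 0.17 (SE 0.087), and it lay above 0 with a pseudocount of 0.1, when rescaled to the same total and in voom. The median of the 6 genes was -0.028 with all libraries (0.26 when rescaled to the same total) and -0.12 without control replicate 2.

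Of the 8 assembly chaperones, Pomp (chr5:147860461-147876456, plus strand), the maturation factor of the β rings, was at 23.8, 73.9 and 22.8 FPKM in controls and at 20.9, 21.3 and 29.4 FPKM after exposure. The exposed libraries lay on both sides of control replicates 1 and 3. Its log2 fold change was -0.52 (SE 0.49) with all libraries and 0.020 (SE 0.17, 95% interval -0.42 to 0.46) without control replicate 2. Psmg3, which helps to form the α ring and was the lowest of the tested members, was at 4.06, 4.90 and 3.80 FPKM in controls and at 3.66, 2.77 and 3.77 FPKM after exposure. Its groups only just did not overlap, at 3.80 and 3.77 FPKM, and the log2 fold change was -0.26 (SE 0.19) and -0.17 (SE 0.14). Psmg1, of the same pathway, was at 19.4, 39.8 and 18.7 FPKM in controls and at 18.5, 22.0 and 25.9 FPKM after exposure, with log2 fold changes of -0.15 (SE 0.34, and 0.16 when rescaled to the same total) and 0.20 (SE 0.16). The chaperones had a median of -0.14 with all libraries (0.15 when rescaled to the same total) and 0.024 without control replicate 2.

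Nfe2l1 (chr11:96817414-96829968, minus strand), the regulator of the set, was at 41.0, 55.2 and 41.5 FPKM in controls and at 60.7, 57.3 and 34.4 FPKM after exposure. Exposed replicates 1 and 2 were the highest of the 6 libraries and exposed replicate 3 the lowest, and this 1.77-fold span was the widest of any tested member across the exposed libraries, where the median span was 1.33-fold. The log2 fold change was 0.11 (SE 0.29, adjusted p 0.913 in limma) with all libraries and 0.25 (SE 0.27, 95% interval -0.43 to 0.93, adjusted p 0.679) without control replicate 2, and 0.37 (SE 0.23) without PM2.5 replicate 3. Between control replicates 1 and 3 the largest span of any member was 1.2-fold (Psme1) and the median 1.03-fold.

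Of 39 other genes of the pathway found in the files (receptors, deubiquitinases, ubiquitin genes, shuttles, immunoproteasome, NFE2L1 processing), 38 were tested and 0 passed the adjusted threshold in either direction, with or without control replicate 2. The lid and base partners Sem1 and Adrm1, the latter a ubiquitin receptor, were at 31.2, 69.4 and 30.0 FPKM (Sem1) and 24.1, 45.3 and 24.7 FPKM (Adrm1) in controls. After exposure they were at 26.5, 23.4 and 35.7 FPKM and at 36.3, 32.1 and 24.5 FPKM. In Adrm1, as in Nfe2l1, exposed replicates 1 and 2 lay above control replicates 1 and 3, and exposed replicate 3 did not.

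The enzymes that process NFE2L1 did not pass the test. Ddi2 was at 8.86, 5.65 and 8.41 FPKM in controls and at 7.79, 7.30 and 8.06 FPKM after exposure, and Ngly1 was at 2.41, 1.06 and 2.33 FPKM and at 1.63, 1.999 and 2.51 FPKM. The immunoproteasome genes, which replace the 3 catalytic subunits under interferon, lay below all controls in every exposed library. Of the 38 genes, 5 were lower without overlap in this way (13.2%, against 6.85% of all genes). As many, 5, were higher without overlap (13.2%, against 8.35%), namely Sel1l, Nfe2l2, Uba1, Rad23b and Zfand2a. Psmb8 was at 37.3, 127 and 35.9 FPKM in controls and at 31.2, 27.9 and 22.6 FPKM after exposure. Psmb9 was at 4.98, 17.9 and 5.46 FPKM and at 2.84, 3.22 and 2.37 FPKM, and Psmb10 was at 17.5, 60.5 and 17.3 FPKM and at 16.1, 15.7 and 10.8 FPKM. Their log2 fold changes without control replicate 2 were -0.42 (SE 0.15, Psmb8), -0.71 (SE 0.13, Psmb9) and -0.30 (SE 0.19, Psmb10), with adjusted p-values of 0.295, 0.105 and 0.497 in limma. Psmb8 and Psmb9 below 0 and Nfe2l2 and Rad23b above 0 were the 4 genes of the list with an unadjusted p under 0.05 in that fit (10.5%, against 15.9% of all genes), and Psmb9 was the only 1 with all libraries (2.63%, against 3.80%).

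Control replicate 2 stood farthest from the other libraries in the members too. It was the highest or lowest of the 6 libraries for 41 of 46 members (89.1%, against 82.9% of all genes). On log2(FPKM + 1) it differed by over 1 unit from the mean of control replicates 1 and 3 for 23 (50%, against 41.1%). The added 1 shrinks such differences at low FPKM. The median level in control replicates 1 and 3 was 55.1 FPKM over the members and 8.19 FPKM over all genes. The ratio of its FPKM to their mean FPKM ran from 0.140 in Psmb7 to 5.48 in Psmb3. Psmb3, a β-ring gene named after its values were seen, was at 96.2 and 97.7 FPKM in control replicates 1 and 3 and 532 FPKM in replicate 2. Above the mean of the 2 other controls lay all 6 base ATPases, 4 of 7 α-ring and 4 of 7 β-ring genes. Also above it lay 4 of 6 activators and inhibitors, 5 of 8 chaperones and Nfe2l1. Of the 3 other base subunits 1 lay above it, as did 1 of 8 lid genes. Of all genes, 47.5% did. Counts and ratios for this library depend on the scaling, because the depositors' denominator was a smaller share of its reads than elsewhere. Ratios little above 1, such as those of Psmc1 (1.09), Psmc3 (1.11) and the lid gene Psmd12 (1.18), could fall below 1 on another scale. The counts were not repeated on another scale. The difference in log2(FPKM + 1) of control replicate 2 from control replicates 1 and 3 was also set against features of the coding transcript. Across the 46 members its Spearman correlation was -0.44 with transcript length and 0.39 with GC content. Across 10374 genes these were -0.40 and 0.41. All of these points come from the same 3 libraries, and genes are not independent replicates. The 23 members with a transcript under 1500 bases had a median ratio of 2.09, with 15 above 1, and the 23 longer ones 0.923, with 11 above 1, where all genes had 1.79 and 0.830. The length of 1500 bases was chosen after seeing the data. The part of transcript length and GC content in these differences was not tested.

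**Figure D3:**
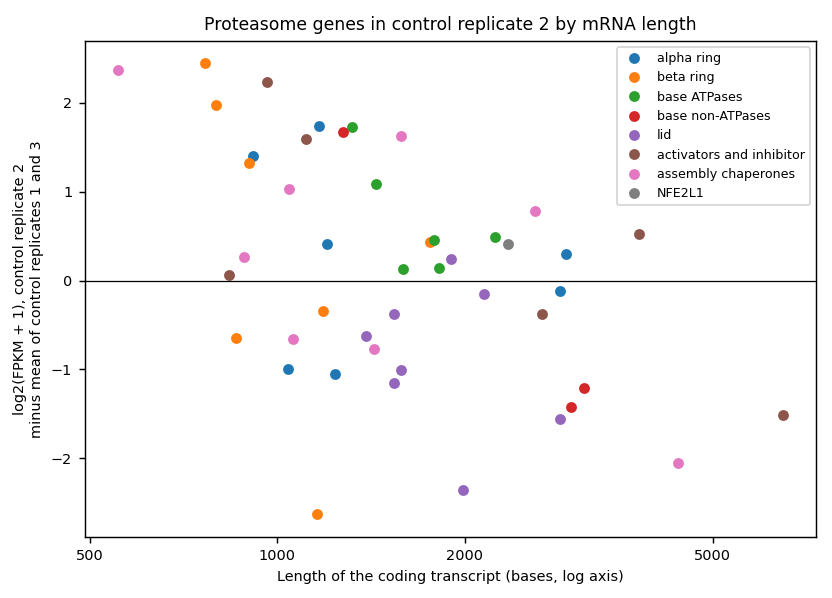
Difference of control replicate 2 from the mean of control replicates 1 and 3, in log2(FPKM + 1), for the 46 tested members by length of the coding transcript (log axis), coloured by part of the complex. Short transcripts lie mostly above 0, with a median ratio of 2.09 under 1500 bases, and Psmb7 is the lowest point.

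Among the exposed libraries, replicate 3 differed from the others. Set against the mean of control replicates 1 and 3, a reference chosen after seeing the data, the members had a median difference of -0.14 log2 units in PM2.5 replicate 1, -0.072 in replicate 2 and 0.11 in replicate 3, where all genes had -0.011, -0.012 and -0.0083. Below that reference lay 31 of 46 members in replicate 1 (67.4%), 27 in replicate 2 (58.7%) and 13 in replicate 3 (28.3%). Of all 11884 genes, 6093, 6116 and 6073 lay below it in these libraries. In the α ring the medians were -0.38, -0.13 and 0.11, and in all 7 genes exposed replicate 3 lay nearer to control replicates 1 and 3 than to the other exposed libraries. This was so for 34 of 46 members (73.9%, against 64.4% of all genes). For 22 members (47.8%, against 40.4%), replicates 1 and 2 lay on one side of the reference and replicate 3 on the other. Psmd3, a lid gene named after its values were seen, shows the pattern with the opposite sign, with 59.3, 54.1 and 60.8 FPKM in controls and 80.5, 76.6 and 49.97 FPKM after exposure. Psmd3, Psmc1 and Nfe2l1 thus lay above the controls in exposed replicates 1 and 2 only, while Psma3, Psmc2 and Psmb1 lay below them in those libraries only. The cause of this split was not tested.

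**Figure D4:**
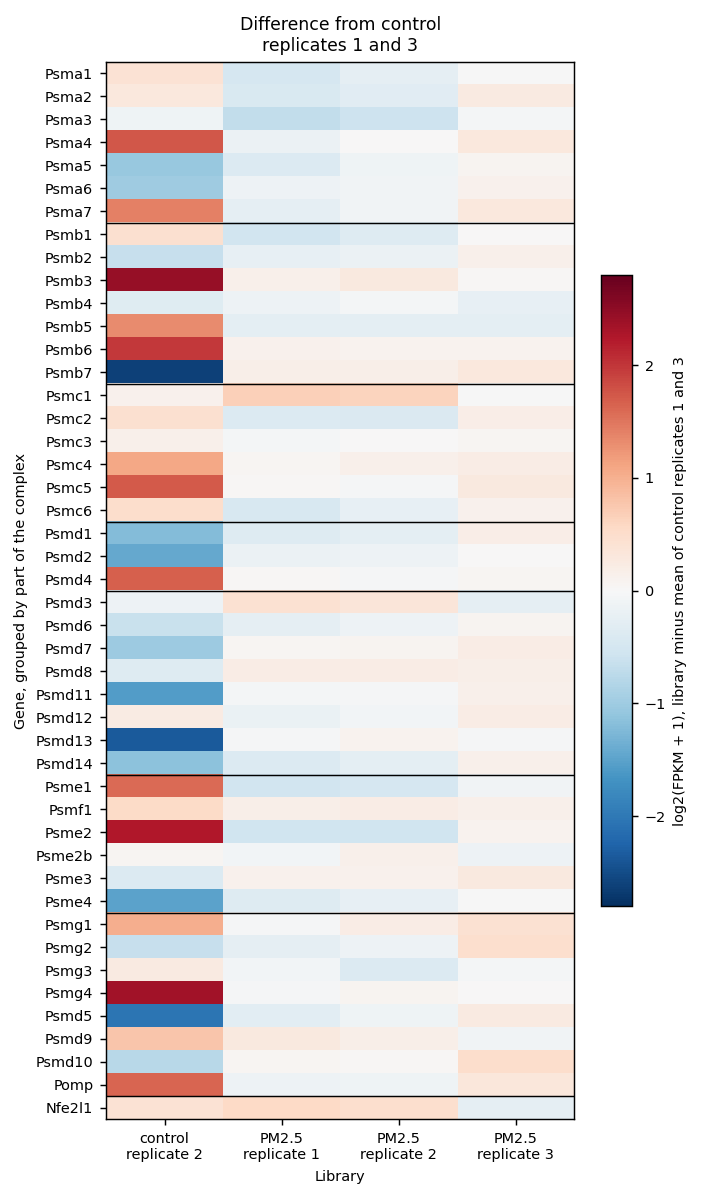
Difference of each library from the mean of control replicates 1 and 3, in log2(FPKM + 1), for the 46 tested members grouped by part of the complex; red is higher and blue lower. The column of control replicate 2 has the strongest colours, and PM2.5 replicates 1 and 2 look alike. In PM2.5 replicate 3, 13 of the 46 members lie below 0, where 6073 of all 11884 genes do.

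Sharing of sequence limits some of these values. At least 20% of the 31-base pieces are found in other genes for 10 members, with the highest shares in Psme2b (78.4%), Psmb5 (71.7%) and Psma5 (61.0%), and 16 members overlap a gene on the opposite strand. Psmc3ip, set aside above, was at 8.27, 10.9 and 8.72 FPKM in controls and at 13.7, 15.1 and 9.53 FPKM after exposure, with an adjusted p of 0.321 in limma without control replicate 2.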

How the data were processed

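RNA of 6 GC-2spd libraries, 3 control and 3 PM2.5, was prepared with NEBNext Ultra and read as 150 bp pairs on a Novaseq; submitters' notes name HISAT2 2.0.5 and featureCounts 1.5.0-p3. The authors deposited FPKM per gene, without pooling. The labels name build mm9, but exon lengths of GENCODE M21 (GRCm38) turned 98.1% to 98.4% of values under 50 reads into whole reads (within 0.05), and were used, for 54495 of 54886 genes. The depositors' denominator was 0.800 of the reads in control replicate 2 and 1.03 to 1.05 elsewhere.

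Groups and replicate numbers came from the labels. limma 3.58.1 (trend and robust, under R 4.3.3 with statmod 1.5.0) was fitted to log2(FPKM + 1) over 11884 genes with a mean of at least 1 FPKM, adjusted by Benjamini-Hochberg over all of them, with a threshold of 0.05. The fit was checked on simulated data without an outlying library. That check therefore does not cover a library as far apart as control replicate 2. Intervals are 95%, and floors of 3 reads cover counting error only. Tables and figures used Python 3.11.15, numpy 2.4.6, pandas 2.3.3, scipy 1.17.1 and matplotlib 3.10.9.

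The members and lists were chosen with earlier results of these data known. Named members were Nfe2l1, Pomp, the catalytic and receptor genes Psmb5, Psmb6, Psmb7, Psmd4 and Psmd14, the special forms Psma8, Psmb11, Psme3 and Psme4, the extremes of each part without control replicate 2, and any member passing the threshold. Of 40 other pathway genes, Paaf1 was not matched. Alternatives were other filters, pseudocounts, scalings, voom on recovered reads, a fold threshold, a replicate block and leaving out each library.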

Additional observations from a re-analysis of the deposited data

How the results depend on the processing

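In every alternative run, 0 of the members tested passed, higher or lower, with all-gene counts from 0 to 118 (11 with all libraries and the settings of the report). The median log2 fold change of the members was -0.09 to -0.0077 when 1 library was left out, and 0.25 when each library was rescaled to the same total, a scaling that moved the median of all genes to 0.26. Quantile normalization also put it above 0, at 0.022 (all genes 0.016), with 22 members below 0. When rescaled, 17 rather than 26 members lay below 0, and the medians of the base ATPases, activators and chaperones turned to 0.015, 0.26 and 0.15. Of 279 values of the 20 named members under alternatives, 263 kept their sign and 16 turned, 9 of them without control replicate 2, and adjusted p-values in limma ran from 0.227 to 1. Psmf1 turned to 0.0025 with a pseudocount of 0.1, 0.27 when rescaled and 0.0090 in voom, and Psmg1 to 0.16 when rescaled. Leaving out 1 library gave ranges of -0.033 to 0.37 (Nfe2l1), -0.81 to 0.020 (Pomp), -0.92 to 0.10 (Psmb6), -0.83 to 0.014 (Psmd4), -0.17 to 0.41 (Psmd14), -0.20 to 0.56 (Psme4), -0.82 to 0.056 (Psma4), -0.15 to 0.46 (Psmd1), -0.11 to 0.17 (Psmf1), -0.33 to 0.20 (Psmg1), and, with no change of sign, 0.26 to 0.60 (Psmc1) and -0.55 to -0.20 (Psmc2). Why was not tested. A mean of at least 5 FPKM removed Psmg3.

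Same-numbered libraries deviated from their group means with correlations of -0.28, 0.18 and 0.25, and control replicate 1 correlated best with PM2.5 replicate 3 (0.29). Deviations from a group mean cancel within the group, and control replicate 2 stood far apart from the other controls. These correlations therefore cannot show whether or not the numbers pair the libraries. With the replicate number as a block, 0 genes in all passed (335 at an unadjusted p under 0.05, against 451), 0 members passed, and their median stayed at -0.049.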
